A study of Arabidopsis thaliana with 6 samples.

Results

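Terpene synthases of Arabidopsis roots were described here through 10 listed loci of this enzyme family. Of the 10 loci, 8 had a probe set that the array annotation assigns to that locus alone, out of 13355 loci with such a probe set, and each of the 8 had 1 such probe set. AT4G20210, also called terpene synthase 8, and AT3G14540 were not analysed here. The loci were chosen with earlier results of these data known, the high value of AT5G48110 among them, so their differences are given as a description and support nothing further. Where a gene had several probe sets, 1 was to be chosen by its mean signal over the 6 arrays, and no gene had more than 1.

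The roots came from Arabidopsis thaliana of the accession Col-0, raised for 4 weeks in hydroponic solution, which had either been given 200 µM cadmium, a toxic heavy metal, for 6 h or had been left without it. Each group had 3 arrays, with replicate numbers 1 to 3 that the labels call biological. All plants were of the same accession, and no allele or transgene is named. Total RNA was hybridised to Affymetrix ATH1 arrays, and the comparison of cadmium with control roots asks which root transcripts differ under the metal.

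Terpene synthases convert prenyl diphosphates into the carbon skeletons of terpenes, which plants use as volatile signals, in defence and as hormone precursors. Their substrates are assembled by prenyl diphosphate synthases from units made in the plastid methylerythritol phosphate pathway and the cytosolic mevalonate pathway. In Arabidopsis the family is large, and its members differ in the organs and cells where they are expressed, roots included. The annotation used here gives the 8 measured loci no symbol and no product, so none is named for a single enzyme.

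The arrays were not alike before any comparison. As deposited, the arrays of replicates 1 and 3 had a 2% trimmed mean signal of 500, and replicate 2 had 227 on the cadmium and 216 on the control array, so every array was set to a trimmed mean of 500 and all signals below are on that scale. The log2 ratio of 3' to 5' signal was 3.22 on the cadmium and 2.05 on the control array of replicate 2 for 1 pair of actin control probe sets, against 0.07 to 0.34 on the other 4 arrays, and 3.72 and 3.46 for a second pair, against 2.41 to 2.99. The ratio for GAPDH was 0.38 on the cadmium and 0.19 on the control array of replicate 2, against -0.10 to 0.05 on the other 4 arrays. A second GAPDH pair had 1.67 and 2.02 on the arrays of replicate 2, against -0.60 to -0.19. The ratio for ubiquitin was 0.59, 0.37 and 0.38 in cadmium roots of replicates 1, 2 and 3, against 0.28, -0.02 and 0.08 in control roots, without overlap. For a second ubiquitin pair it was 1.03, 1.26 and 0.94 in cadmium roots, against 0.65, 1.05 and 0.86 in control roots, where the groups overlapped. Cadmium was higher within each replicate in both ubiquitin pairs, and the part of these ratios in the results was not tested. Across the 15922 probe sets tested, the cadmium minus control differences had r = 0.77 between replicates 1 and 3, r = -0.67 between replicates 1 and 2 and r = -0.63 between replicates 2 and 3, as a description over genes measured on the same arrays. Replicate 2 thus ran opposite to the other pairs under the labels as given. Whether its 2 labels were exchanged was not tested. If they were, every replicate 2 difference given here would take the opposite sign, and every value over all 6 arrays would change. Each result is given over all 6 arrays, within the 4 arrays of replicates 1 and 3, and as the single difference of replicate 2. Few tissue markers had a probe set that the annotation assigns to that gene alone. These were 1 of 4 for root epidermis and hairs, 1 of 1 for root cortex, 0 of 5 for stele and endodermis and 1 of 7 for shoot photosynthesis. The annotation names no gene for 8730 of 22746 probe sets, so the other markers may still be on the array. EXPA7, an expansin of root hairs, had signals of 280 to 752 in cadmium and 204 to 415 in control roots. AT1G62500 of the cortex had 109 to 239 in cadmium and 111 to 199 in control roots. PRK, a Calvin cycle kinase of green tissue, had 434, 72.9 and 440 in cadmium roots of replicates 1, 2 and 3. Its control signals were 261, 61.9 and 412, so both arrays of replicate 2 were lowest. Within replicates 1 and 3 the log2 difference was 0.77 ± 0.53 for EXPA7 (SE, limma, adjusted p = 0.414). It was 0.57 ± 0.35 for AT1G62500 and 0.41 ± 0.29 for PRK (SE, limma, adjusted p = 0.369 and 0.430). There AT1G62500 and PRK were higher in cadmium roots without overlap, as were 40.6% of all probe sets tested. None of the 3 passed, and their part in the results below was not tested. In whole roots, fewer cells of a type and less RNA per cell cannot be told apart.

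The 8 terpene synthases spanned a wide range of signal, and 4 of them passed the filter on dim probe sets, a mean signal of at least 95.2 (the 30th percentile). The nearest to this limit were AT1G70080 just inside, with a mean of 117, and AT3G29190 just outside, with 92.3. In order of mean signal the tested loci were AT3G29410 (a mean of 2587, percentile 95.0 of all probe sets), AT5G48110 (297, percentile 56.1), AT4G20230 (199.6, percentile 46.2) and AT1G70080 (117, percentile 34.6). Probe sets differ in their response to a transcript, so this order ranks signals and not amounts of RNA. AT3G29410 stood above the other 7 loci on each of the 6 arrays, whereas the ranges of AT5G48110, AT4G20230 and AT1G70080 overlapped.

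AT5G48110 had the widest difference of the 4 tested loci within replicates 1 and 3. Its signals were 507, 91.1 and 768 in cadmium roots of replicates 1, 2 and 3, against 91.0, 269 and 57.5 in control roots. It was high in cadmium roots of replicates 1 and 3 and in the control roots of replicate 2, so the groups of all 6 arrays overlapped while those of replicates 1 and 3 did not. On the linear scale it averaged 455 ± 341 in cadmium and 139 ± 113 in control roots (SD, n = 3 each). Within replicates 1 and 3 the log2 difference was 3.11 ± 0.37 (SE), or 8.62-fold higher in cadmium roots (limma, adjusted p = 0.0234). The control signal of replicate 3 lay under 90.7, the 30th percentile of all signals, and with lower signals set to that value the locus was at least 6.87-fold higher (limma, adjusted p = 0.0671). The call was also lost without cadmium replicate 1 (limma, log2 difference 3.41, adjusted p = 0.0649) or without cadmium replicate 3 (2.81, adjusted p = 0.0992), and over its alternatives the adjusted p ran between 0.00205 and 0.0992. Over all 6 arrays the difference was 1.55 ± 0.89 (SE) and did not pass (limma, adjusted p = 1). It ran between 0.94 without cadmium replicate 3 and 2.48 without cadmium replicate 2 as each array was left out, and in replicate 2 the cadmium signal was lower by 1.56 on the log2 scale.

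AT3G29410 carried the strongest signal of the loci. It had signals of 2896, 2425 and 4535 in cadmium roots of replicates 1, 2 and 3, against 868, 3146 and 1656 in control roots. Cadmium roots were above control roots in replicates 1 and 3, without overlap, and below them in replicate 2. Its linear means were 3285 ± 1107 in cadmium and 1890 ± 1157 in control roots (SD, n = 3 each). The log2 difference was 1.60 ± 0.39 (SE) within replicates 1 and 3, which did not pass the threshold (limma, adjusted p = 0.0932), 0.94 ± 0.50 (SE) over all 6 arrays (limma, adjusted p = 1), and -0.38 in replicate 2. Over all 6 arrays it ran between 0.47 without control replicate 1 and 1.40 without control replicate 2. Within replicates 1 and 3, it passed without control replicate 3, at 2.06 (limma, adjusted p = 0.0231), in a range of adjusted p from 0.00122 to 0.343 over its alternatives.

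**Figure D1:**
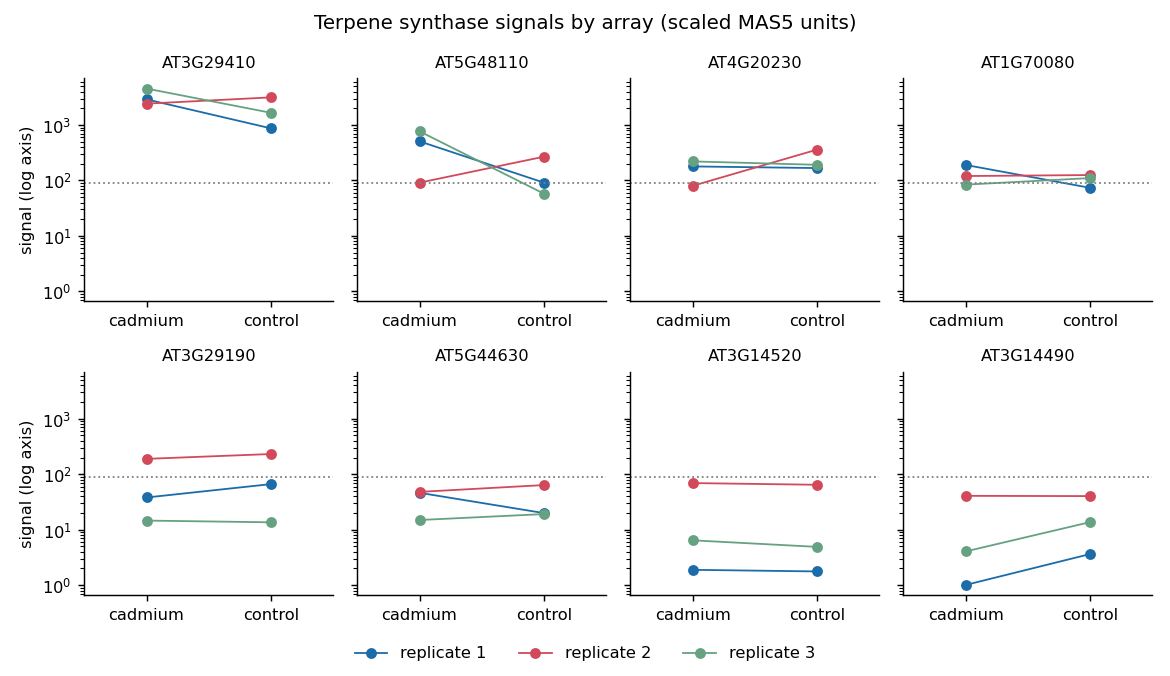
Signals of the 8 measured terpene synthases (log axis, scaled MAS5 units) on the cadmium and control arrays. Each line joins the arrays of 1 replicate number, and the dotted line marks a signal of 90.7. AT5G48110 slopes down to control in replicates 1 and 3 and up in replicate 2, while AT3G14520 and AT3G14490 lie under the dotted line on all 6 arrays.

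AT4G20230 and AT1G70080 showed no difference past the threshold in either fit. AT4G20230 had signals of 179, 79.8 and 220 in cadmium roots of replicates 1, 2 and 3, against 167, 360 and 191 in control roots. Replicates 1 and 3 lay within a narrow band on their 4 arrays, and replicate 2 held both the lowest and the highest of the 6 signals. The log2 difference was 0.15 ± 0.28 (SE) within replicates 1 and 3 (limma, adjusted p = 0.767), -0.62 ± 0.50 (SE) over all 6 arrays (limma, adjusted p = 1), and -2.17 in replicate 2. With each array left out, the value over all 6 arrays ran between -0.92 (no cadmium replicate 3) and -0.19 (no cadmium replicate 2). The difference within replicates 1 and 3 was -0.11 after quantile normalization and -0.11 after median centring, so it has no settled direction. AT1G70080 had signals of 190, 120 and 84.0 in cadmium roots of replicates 1, 2 and 3, against 73.5, 125 and 110 in control roots. Here replicates 1 and 3 themselves went opposite ways, and the groups overlapped. Its log2 difference was 0.49 ± 0.52 (SE) within replicates 1 and 3 (limma, adjusted p = 0.592) and 0.31 ± 0.48 (SE) over all 6 arrays (limma, adjusted p = 1), with -0.06 in replicate 2.

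The other 4 loci were too dim to be tested. AT3G29190 had signals of 38.1, 189 and 14.6 in cadmium roots of replicates 1, 2 and 3, against 66.4, 232 and 13.6 in control roots, so it exceeded 90.7 on the arrays of replicate 2 alone. AT5G44630 had signals of 14.9 to 48.0 in cadmium and 19.1 to 63.8 in control roots. AT3G14520 ranged over 1.89 to 69.3 in cadmium and 1.77 to 64.6 in control roots, and AT3G14490 over 1.01 to 40.8 in cadmium and 3.64 to 40.3 in control roots. These last 3 loci lay under 90.7 on all 6 arrays, and their highest signals in each group were those of replicate 2. With no filter 0 of the 4 passed within replicates 1 and 3, with limma adjusted p between 0.446 (AT3G14490) and 0.928 (AT3G14520). Signals this low have no dependable order, and setting every array to the same trimmed mean multiplied those of replicate 2 by 2.20 (cadmium) and 2.31 (control).

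**Figure D2:**
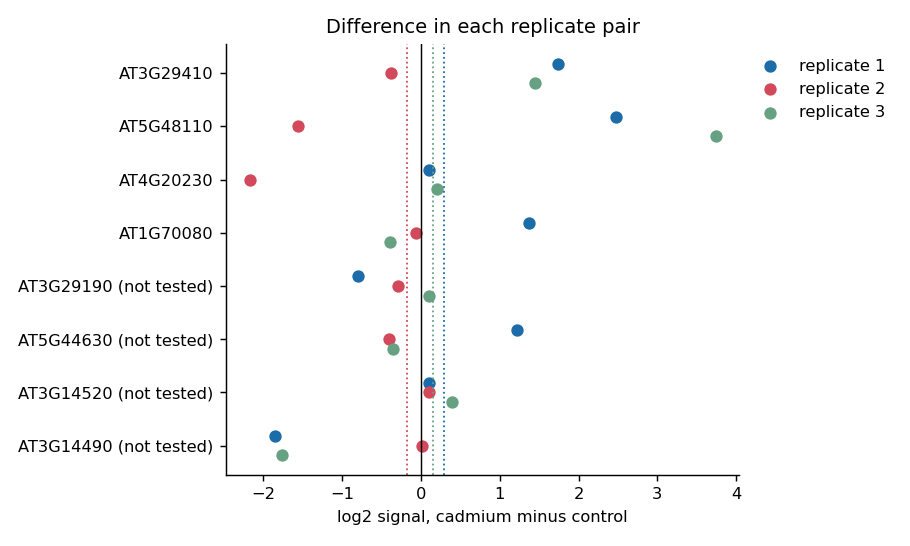
Log2 signal of cadmium minus control roots in each replicate pair for the 8 loci, in order of mean signal. Dotted lines mark the median over all tested probe sets in each pair (0.29, -0.18 and 0.16 in replicates 1, 2 and 3), and the 4 lowest loci are those not tested. AT5G48110 and AT3G29410 lie to the right in replicates 1 and 3 and to the left in replicate 2.

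Counted over the family, 1 of the 4 tested loci was higher in cadmium roots within replicates 1 and 3 and 0 were lower, where 4.38% of all probe sets tested were called, 1.19% higher and 3.19% lower. The higher locus was already known when the loci were chosen, and nothing is read from this count. Groups of replicates 1 and 3 did not overlap for 2 of the 4, both higher in cadmium roots, where 57.5% of all probe sets were separate, 40.6% higher and 17% lower. The median of the 4 differences was 1.04, beside 0.22 over all probe sets tested, and with the loci so chosen nothing is read from it either. Over all 6 arrays 0 of the 4 passed, in a fit where 0% of probe sets were called by limma and 0.678% (108) had an unadjusted p under 0.05. Of the 4, 0 had an unadjusted p under 0.05, with 0.102 for AT3G29410 and 0.121 for AT5G48110 as the lowest (limma, 3 against 3 arrays).

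Replicate 2 had 1 array in each group, so its departure from the other pairs was not tested and is given as values. Its difference minus the mean difference of replicates 1 and 3 was -4.67 for AT5G48110, -2.32 for AT4G20230, -1.97 for AT3G29410 and -0.55 for AT1G70080 on the log2 scale. Replicates 1 and 3 were alike and replicate 2 opposed for 3 of the 4 loci, all but AT1G70080, as for 61.1% of all probe sets tested.

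**Figure D3:**
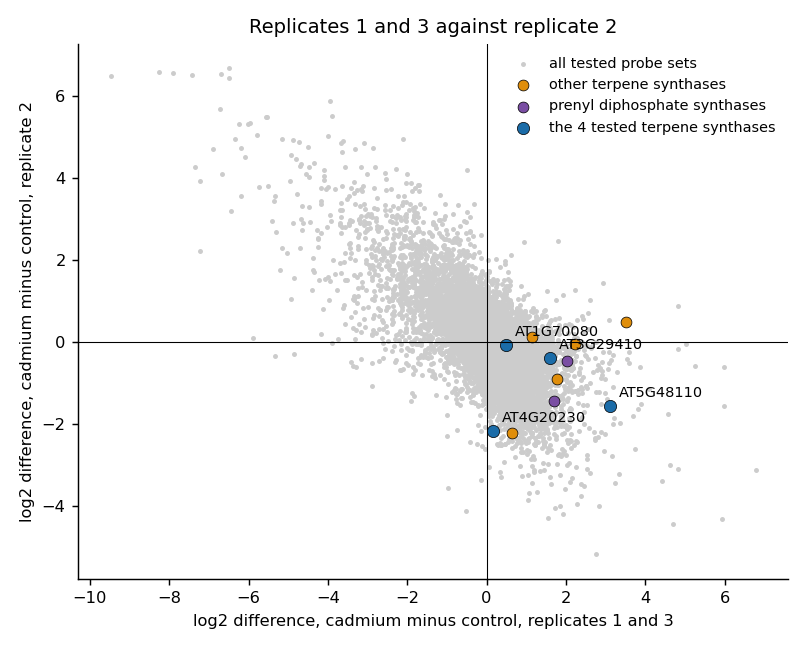
Log2 difference of cadmium minus control roots within replicates 1 and 3 (horizontal) against that in replicate 2 (vertical) for 15922 probe sets, with the 4 tested loci, 5 other terpene synthases and 2 prenyl diphosphate synthases marked. The cloud slopes down from upper left to lower right, and AT5G48110 lies at 3.11 and -1.56.

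Other genes of terpene synthesis were read from lists, of which few loci had a probe set that the annotation assigns to that locus alone. The annotation names no gene for 8730 of 22746 probe sets, so a locus without one may still be on the array. Among 21 other listed terpene synthases, 9 had such a probe set and 5 were tested. Of these 5, 2 were higher in cadmium roots within replicates 1 and 3, 0 were lower, where 1.19% of all probe sets were called higher and 3.19% lower, and 0 passed over all 6 arrays. AT1G33750 had signals of 301, 352 and 242 in cadmium roots of replicates 1, 2 and 3, against 56.3, 364 and 57.7 in control roots. It was low in the control roots of replicates 1 and 3, and level between the arrays of replicate 2. Its log2 difference in replicates 1 and 3 was 2.24 ± 0.31 (SE, limma, adjusted p = 0.0325), and because both control signals were under 90.7 the fold is given as at least 2.97-fold higher.

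AT1G31950 was the other locus of this list to pass. It had signals of 412, 219 and 492 in cadmium roots of replicates 1, 2 and 3, against 149, 407 and 114 in control roots. It followed the order of AT5G48110, high under cadmium in replicates 1 and 3 and high in the control of replicate 2, and was 3.45-fold higher within replicates 1 and 3 (log2 difference 1.79 ± 0.27 SE, limma, adjusted p = 0.0369). With signals floored at 90.7, 0 probe sets passed in that fit, so neither of these calls is kept there. All signals of AT1G31950 lay above 90.7, and its own difference was unchanged by the floor. AT3G32030, read by a probe set of the type that can match several transcripts, had signals of 83.9, 336 and 229 in cadmium and 3.12, 237 and 46.9 in control roots. Its log2 difference of 3.52 ± 1.40 (SE) within replicates 1 and 3 did not pass (limma, adjusted p = 0.208) and rested on control signals under 90.7. It was the widest of the 5 as fitted, but with the floor it was 0.67, below AT1G31950 (1.79), AT1G33750 (1.57) and AT3G29110 (1.14). Groups of replicates 1 and 3 did not overlap for 5 of the 5, each higher in cadmium roots. The share over all probe sets was 40.6%. For AT3G32030 this rested on signals under 90.7, and with the floor its difference in replicate 1 was 0. The median difference of the 5 was 1.79, beside 0.22 over all. The list was chosen with earlier results of these data known, so nothing is read from these values. TPS-CIN, a synthase of the monoterpene cineole, was too dim to be tested, with signals of 206, 37.0 and 149 in cadmium and 31.1, 61.3 and 58.7 in control roots of replicates 1, 2 and 3. It exceeded 90.7 in cadmium roots of replicates 1 and 3 alone.

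Prenyl diphosphate synthases make the substrates of these enzymes. Of 15 listed loci, 5 had a probe set assigned to that locus alone, and 2 of them were tested. Neither passed in either fit. AT3G29430 had signals of 239, 515 and 501 in cadmium roots of replicates 1, 2 and 3, against 62.7, 1384 and 183 in control roots. Its log2 difference was 1.69 ± 0.63 (SE) within replicates 1 and 3 (limma, adjusted p = 0.190) and -1.43 in replicate 2. AT3G32040 had signals of 110, 324 and 195 in cadmium and 17.3, 448 and 75.7 in control roots, with a log2 difference of 2.02 ± 0.80 (SE, limma, adjusted p = 0.210) within replicates 1 and 3, or 0.69 with the floor, and -0.47 in replicate 2. Both loci were above their controls in replicates 1 and 3 and below them in replicate 2. In the RefSeq gene order of the TAIR10.1 assembly, AT3G29430 is the next protein-coding gene to AT3G29410, AT3G32040 the next to AT3G32030, and AT3G14510, another listed prenyl diphosphate synthase, the next to both AT3G14490 and AT3G14520. AT3G14510 was too dim to be tested, with signals of 51.7, 124 and 61.6 in cadmium and 13.6, 167 and 23.9 in control roots.

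**Figure D4:**
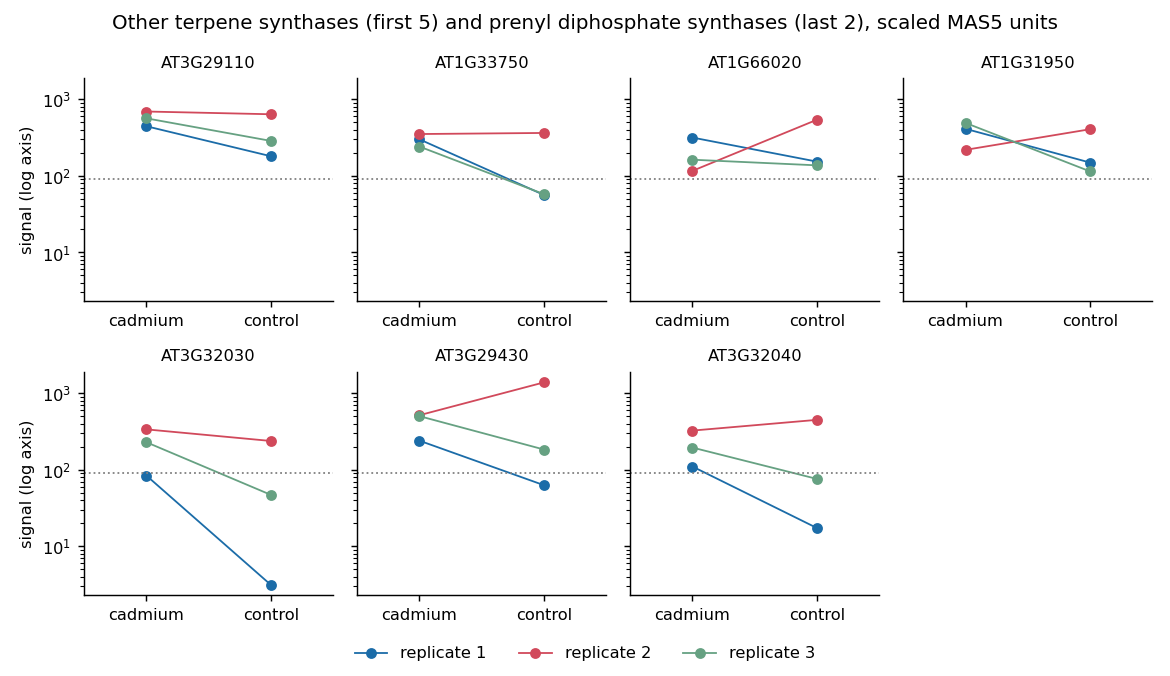
Signals of 5 other terpene synthases and 2 prenyl diphosphate synthases (log axis, scaled MAS5 units) on the cadmium and control arrays, with lines joining the arrays of 1 replicate number and a dotted line at 90.7. All 7 loci are higher in cadmium roots in replicates 1 and 3, and 5 of the 7 are lower in replicate 2. In replicate 1, AT3G32030 lies under the dotted line on both arrays.

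Among the genes near AT5G48110 in the RefSeq order, 2 were tested and neither passed. XTH20, a xyloglucan endotransglucosylase 3 genes away, had a log2 difference of -0.19 ± 0.27 (SE) within replicates 1 and 3 (limma, adjusted p = 0.687), and AT5G48060, 4 genes away, -0.05 ± 0.27 (SE, adjusted p = 0.923). These neighbours, up to 5 genes to either side, were looked up after the data were seen.

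The remaining lists held few measured genes. In the cytosolic mevalonate pathway 0 of 2 tested loci passed in either fit. AT3G54250 had signals of 306, 186 and 355 in cadmium roots of replicates 1, 2 and 3, against 156, 171 and 152 in control roots, and its groups did not overlap over all 6 arrays, as for 3.34% of all probe sets. Its log2 difference was 1.098 ± 0.249 (SE, limma, adjusted p = 0.0812) within replicates 1 and 3 and 0.77 over all 6 arrays (limma, adjusted p = 1). AT1G31910 of the same list was at 0.26 ± 0.18 (SE, limma, adjusted p = 0.414) within replicates 1 and 3. In triterpene synthesis 0 of 1 tested locus passed, AT5G47980 at 0.54 ± 0.91 (SE, limma, adjusted p = 0.744). In the jasmonate list, whose hormone induces several terpene synthases in leaves, 1 of 14 listed loci had a probe set assigned to it alone. It was tested. This was OPCL1, a CoA ligase of jasmonate synthesis, lower within replicates 1 and 3, where 3.19% of all probe sets were called lower. Its log2 difference there was -1.54 (limma, adjusted p = 0.0317), and 0.36 in replicate 2. Over all 6 arrays it was -0.91 ± 0.43 (SE) and did not pass. With signals floored at 90.7, 0 probe sets passed within replicates 1 and 3, so the call of OPCL1 is lost there. Its own signals all lay above 90.7 and its difference was unchanged, so this loss is not one of dim signals of OPCL1. The plastid methylerythritol phosphate pathway and the terpene-modifying P450 enzymes had 0 loci with a probe set assigned to that locus alone. They were not analysed here, and the 0 counts names in the annotation used, not probe sets on the array.

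The genes whose profile over the 6 arrays was most like that of AT5G48110 were found by the root mean square difference between log2 profiles, each centred on its own mean, among 5887 named genes at or above the median signal. The nearest was AT1G21440 at 0.41, with signals of 3701, 1019 and 3353 in cadmium roots of replicates 1, 2 and 3, against 624, 2354 and 393 in control roots. AT5G04960 (0.48), AT1G57590 (0.51), sks15 (0.54) and AT5G66590 (0.57) followed. Each of the 5 was higher in cadmium roots of replicates 1 and 3 and lower in those of replicate 2. This pattern follows from the choice by likeness to AT5G48110 and is no separate result. Replicates 1 and 3 were alike and replicate 2 opposed for 61.1% of all probe sets tested. Of the 16 other terpene synthases with a probe set, from both lists, AT1G31950 came nearest, at 0.68, with 0.221% of the 5887 genes nearer to AT5G48110 than it was. TPS-CIN followed at 0.77 with 0.527% nearer, but it lay under 90.7 on 4 of the 6 arrays, where signals have no dependable order. AT3G29410 came at 0.93, with 3.11% nearer. AT4G20230, at 1.26 with 35.8% nearer, came behind AT1G33750 (1.14), AT1G66020 (1.21) and AT3G29110 (1.22) as well. The rest of the 16 lay farther away, from AT1G70080 at 1.35, with 53.8% nearer, to AT3G14490 at 2.88, with 98.6% nearer. Among them AT3G32030, which was tested, lay at 2.12, with 93.7% nearer. AT1G33750, AT4G20230, AT1G70080, AT3G32030 and the untested loci had mean signals under the median of 233 that the 5887 genes had to reach. Their shares thus set dimmer probe sets beside brighter ones.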

How the data were processed

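Per the labels' protocols, cRNA of 6 root samples was labelled with biotin and read on ATH1 arrays. The authors deposited an intensity signal, on a linear scale, for 22810 probe sets. The submitters' processing notes name MAS5 and give no version. Sample titles gave the group and the replicate number, and the descriptions number the replicates differently while pairing the same arrays. No label says that replicates came from separate cultures, so p-values measure the spread between these arrays, and the number of arrays limits the precision.

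Each array was set to a 2% trimmed mean of 500. A signal of 0 occurred 7 times, on control replicate 2, and was replaced by the lowest signal above 0 there. The 64 control probe sets and those with a mean under 95.2 were left out, which left 15922. On the log2 scale of these deposited signals limma 3.58.1 in R 4.3.3 was run (lmFit, eBayes with an intensity trend, two-sided, Benjamini-Hochberg over all probe sets tested, threshold 0.05) over all 6 arrays (4 residual degrees of freedom) and within replicates 1 and 3 (2). Differences are cadmium minus control. The fits were also run on simulated data with independent noise on each array. Such data hold neither the opposed replicate 2 nor any link between arrays of a replicate, so nothing is read from them. Of 22746 probe sets, 13513 were named with 1 gene, 503 with several and 8730 with none, and symbols were updated through the TAIR10.1 RefSeq table.

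The loci, the gene lists and the split by scaling were chosen with earlier results of these data known. Named genes are the 10 loci, the 2 widest differences of each list within replicates 1 and 3, and the 5 genes most like AT5G48110. AT1G31950, TPS-CIN, AT3G14510 and the neighbours were named after their values were seen. Alternatives were signals as deposited, quantile normalization, median centring, a floor at 90.7, no filter, a replicate block, a scaling batch block, array weights and each array left out.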

Additional observations from a re-analysis of the deposited data

Results flagged for a closer look

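For 3 of the 4 tested terpene synthases replicates 1 and 3 differed in one direction between cadmium and control roots and replicate 2 in the other. The difference in replicate 2 minus the mean of those in replicates 1 and 3 was -4.67 for AT5G48110, -2.32 for AT4G20230 and -1.97 for AT3G29410 on the log2 scale. With 1 array per group in replicate 2, this was not tested, and 61.1% of all probe sets tested were opposed in the same way.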

How the results depend on the processing

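Of 125 values recomputed for 10 results, 108 kept their direction and their side of the threshold, 12 changed side or count and 5 reversed. The count of probe sets past the threshold over all 6 arrays was 435 with array weights, which were 0.19 and 0.33 on the cadmium and control arrays of replicate 2, and 0 under every other alternative run. AT5G48110 passed with these weights (3.03, limma, adjusted p = 0.0443) and AT4G20230 turned to 0.045. Within replicates 1 and 3 the count was 697, 0 with signals floored, 3388 with a replicate block, and 96 to 1216 with each array left out, with 96 in the absence of cadmium replicate 1, 128 of cadmium replicate 3 and 1216 of control replicate 3. Calls within replicates 1 and 3 split into 189 higher and 508 lower, 106 and 671 after median centring, and 1895 and 1493 with the replicate block. AT4G20230 was at -0.11 within replicates 1 and 3 after quantile normalization and after median centring. Without cadmium replicate 1, AT1G70080 was at -0.099 within replicates 1 and 3 and at -0.00023 over all 6 arrays, against 1.08 and 0.59 without cadmium replicate 3, the other ends of those ranges. The cause of these changes was not tested. Arrays of the same replicate number deviated from their group means with correlations of 0.14, 0.035 and 0.33 for replicates 1, 2 and 3. Those means include replicate 2, which ran opposite, so the correlations cannot decide whether the numbers pair the arrays. The main fits used no replicate block. With the replicate block AT3G29410 passed within replicates 1 and 3 (1.60, limma, adjusted p = 0.00122). The mean of a gene's probe sets gave no other value, since each locus had 1. Signals under 90.7 limit what can be said of AT3G29190, AT5G44630, AT3G14520 and AT3G14490.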
